A study of Mus musculus with 6 samples.

Results

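The S100A genes code for small calcium-binding proteins, and most of them lie side by side in a cluster on mouse chromosome 3. Of the 22911 genes that could be named on the array, 10 were described here: *S100a1*, *S100a3*, *S100a4*, *S100a6*, *S100a8*, *S100a9*, *S100a10*, *S100a11*, *S100a13* and *S100a16*. They were chosen by the measured difference of *S100a6* between IG27 and WT cells, the contrast described below, and by their place in its cluster. Their differences between the groups are therefore given as a description, with no p-value of their own. Limma p-values are given for their neighbors, partners and receptors. The lists of partners and receptors were also chosen with earlier results of these data known, and their p-values do not allow for that choice.

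RNA was compared between 3 WT and 3 IG27 samples on 1-color Agilent arrays. WT cells were OS3 glial cells that carried the empty vector, and IG27 cells were OS3 glial cells that carried the H3.3K27M mutant of histone H3.3 (*H3f3a*) on a plasmid. Both came from OS3, a glial line from the brain of newborn C3H/HeN mice (labeled as male C3H) that had been immortalized with SV40, a change that both groups carry, and both grew for 2 days in the same MEM-α medium with serum, insulin and glucose. The plasmid was a pcDNA3.1 vector with mouse *H3f3a* cDNA, and the methods speak of clones obtained by drug selection, so a property of the IG27 line and an effect of the mutation cannot be told apart. Nothing says that the samples of a group came from separate transfections, so p-values measure only the spread between these samples. In bulk RNA, fewer cells of a type and less RNA per cell cannot be told apart.

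S100 proteins fold into EF-hand dimers. Calcium opens a greasy surface on most of them, through which they hold annexins, myosin, p53 and other partners inside the cell. Some leave the cell without a signal peptide and act on the receptors RAGE (*Ager*) and Tlr4. In the brain, *S100b* is the classical family member of astrocytes, while S100a8 and S100a9 are abundant in neutrophils and monocytes. The *S100* cluster forms part of the epidermal differentiation complex, in which blocks of skin barrier genes (*Sprr*, *Lce* and the fused type, such as *Tchh*) separate *S100a10* and *S100a11* from the other members.

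Values are normalized log2 intensities, that is, log2 of the processed spot signal minus the 75th percentile of the array, so each unit is a doubling and 0 is the 75th percentile of that array. They compare a probe between arrays and not a probe with another probe. On the 5 arrays with complete scanner output, 58.8% to 61.2% of the 56605 probes were well above background and no spot was saturated. The probe of the gene whose mutant was introduced, *H3f3a*, read 6.96, 6.70 and 6.85 in WT cells and 6.61, 6.52 and 6.61 in IG27 cells, a log2 difference of -0.26 (SE 0.08, adjusted p = 0.0237 from limma). Whether this probe also reads the plasmid transcript was not tested, so it does not check the labels. All 12 glial markers were tested. *Gfap*, the astrocyte filament, was well above background in every WT and IG27 array with complete output and fell by 1.07 (SE 0.09, adjusted p = 6.91e-05 from limma). In all, 5 glial markers rose and 5 fell, with *Slc1a3* (at least 20.6-fold), *Pdgfra* (2.36) and *Olig2* (1.51) the largest rises and *Aldh1l1* (-1.72), *Gfap* and *Slc1a2* (-1.03) the largest falls. Among markers of other cell types, *Kdr* (at least 135-fold), *Map2* (log2 difference 8.03, with 1 of 3 WT arrays well above background), *Epcam* (at least 15.4-fold), *Dcn* (at least 3.31-fold) and *Col3a1* (1.57) rose and *Tubb3* (-2.63), *Pdgfrb* (-1.16), *Col1a1* (-0.92), *Acta2* (-0.51), *Pecam1* (-0.27), *Krt5* (at least 1.77-fold) and *Krt14* (at least 2.13-fold) fell, all at an adjusted p under the threshold of 0.05 in limma. Markers given as at least a fold, and *Map2*, were tested only because the group where they were higher was well above background. Over all genes tested, 30.5% rose and 40.0% fell. The tested markers were 5 of 7 for fibroblast and mesenchymal cells, 2 of 4 for endothelial, 3 of 6 for epithelial and 3 of 4 for neuronal cells. Levels were also summed over all listed markers with a probe, tested or not. These sums, in multiples of the 75th percentile and comparable only between the groups within a list, were 173 to 177 in WT and 150 to 158 in IG27 cells for the mesenchymal list, 0.168 to 0.19 and 2.6 to 2.67 for the endothelial, 0.108 to 0.151 and 0.356 to 0.382 for the epithelial, and 17.5 to 19.9 and 9.96 to 11 for the neuronal list, beside 169 to 181 and 119 to 130 for the glial list. In IG27 cells *Kdr* made up most of the endothelial sum and *Epcam* most of the epithelial sum, so these sums do not show a rise across the list. The listed markers *Cdh5*, *Tek*, *Cdh1*, *Krt8*, *Krt18*, *Lum* and *Rbfox3* were not well above background in either group, and the part of other cell types in the results below was not tested.

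Regulatory sequence is shown for the members that anchor the pattern described below. These are *S100a6* and *S100a11*, the members with the largest differences, *S100a4*, which neighbors *S100a6* and differed little, and *S100a1*, whose window runs into that of *S100a13*. Each window is RefSeq sequence of GRCm38.p6, from 250 bases before the annotated start of transcription to 50 bases after it, on the strand of the gene. The windows lie at chr3:90612644-90612943 (plus strand) for *S100a6*, chr3:93520246-93520545 (plus strand) for *S100a11*, chr3:90603520-90603819 (plus strand) for *S100a4* and chr3:90514281-90514580 (minus strand) for *S100a1*. Capitals mark the letters TATAAA (the TATA box), TGANTCA (the AP-1 site) and GGGCGG (the GC box), searched on both strands.
S100a6: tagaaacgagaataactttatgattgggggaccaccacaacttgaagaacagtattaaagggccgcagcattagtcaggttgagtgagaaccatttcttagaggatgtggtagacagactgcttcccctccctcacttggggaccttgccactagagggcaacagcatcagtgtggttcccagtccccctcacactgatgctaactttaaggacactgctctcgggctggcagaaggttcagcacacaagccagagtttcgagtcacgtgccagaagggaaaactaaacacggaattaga
S100a11: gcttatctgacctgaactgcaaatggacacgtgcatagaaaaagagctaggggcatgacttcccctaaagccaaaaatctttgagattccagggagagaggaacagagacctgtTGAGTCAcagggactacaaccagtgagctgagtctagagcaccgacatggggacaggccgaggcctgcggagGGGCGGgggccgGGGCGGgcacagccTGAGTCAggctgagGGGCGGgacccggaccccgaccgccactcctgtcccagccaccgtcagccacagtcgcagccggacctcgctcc
S100a4: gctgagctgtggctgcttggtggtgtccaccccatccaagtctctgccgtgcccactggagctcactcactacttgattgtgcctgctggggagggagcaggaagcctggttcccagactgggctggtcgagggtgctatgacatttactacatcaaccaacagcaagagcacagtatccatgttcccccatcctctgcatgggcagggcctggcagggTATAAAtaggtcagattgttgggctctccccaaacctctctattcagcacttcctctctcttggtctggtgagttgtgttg
S100a1: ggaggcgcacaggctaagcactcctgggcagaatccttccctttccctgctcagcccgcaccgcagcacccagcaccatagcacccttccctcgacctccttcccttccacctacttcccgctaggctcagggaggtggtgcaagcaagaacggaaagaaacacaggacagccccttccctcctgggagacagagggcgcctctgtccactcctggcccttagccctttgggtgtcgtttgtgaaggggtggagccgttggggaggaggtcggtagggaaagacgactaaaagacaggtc

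The window of *S100a11* held 2 AP-1 letters, which began 136 and 38 bases before the start, and 3 GC boxes, which began 64, 52 and 24 bases before it. That of *S100a4* held TATAAA, beginning 31 bases before the start, a usual place for a TATA box. The windows of *S100a6* and *S100a1* held none of these letters. None of the matches in the printed windows overlapped another. Over all 32851 windows in the table, 13.6% held TATAAA, 7.81% held TGANTCA and 35.7% held GGGCGG. The 9 members with an entry had 13 windows, of which 4 held TATAAA, 2 held TGANTCA and 4 held GGGCGG. Besides *S100a11*, the AP-1 letters were found in a window of *S100a16*, whose level was lower in IG27 cells, so members on either side of 0 held them. CpG pairs numbered 15 in the window of *S100a11*, 11 in that of *S100a1*, 6 in that of *S100a6* and 2 in that of *S100a4*, against a median of 7 over all windows. The *S100a1* and *S100a13* windows lie head to head on opposite strands and share 204 of their 300 bases.

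All 10 members had a probe on the array. A gene was tested if, in either group, all arrays with complete output put its probe well above background, which left 9. Of the 9, 5 were higher and 4 were lower in IG27 cells. As a description only, since the choice of members used this contrast, 9 lay past the threshold of limma (adjusted p under 0.05 over all genes), and in 9 the groups did not overlap. Over all 14894 genes tested, 70.5% passed this threshold, 30.5% as higher and 40.0% as lower, and in 75.7% the groups did not overlap. Nothing is read from the members' share. *S100a1* and *S100a8* were tested only because they were measured in IG27 cells. The median log2 difference of the 9 members was 2.23, against -0.07 over all genes tested. It is the value of *S100a13*, in a list with members far apart, and without *S100a1* and *S100a8*, under a filter that asks for signal on every complete array, it became -0.27.

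**Figure D1:**
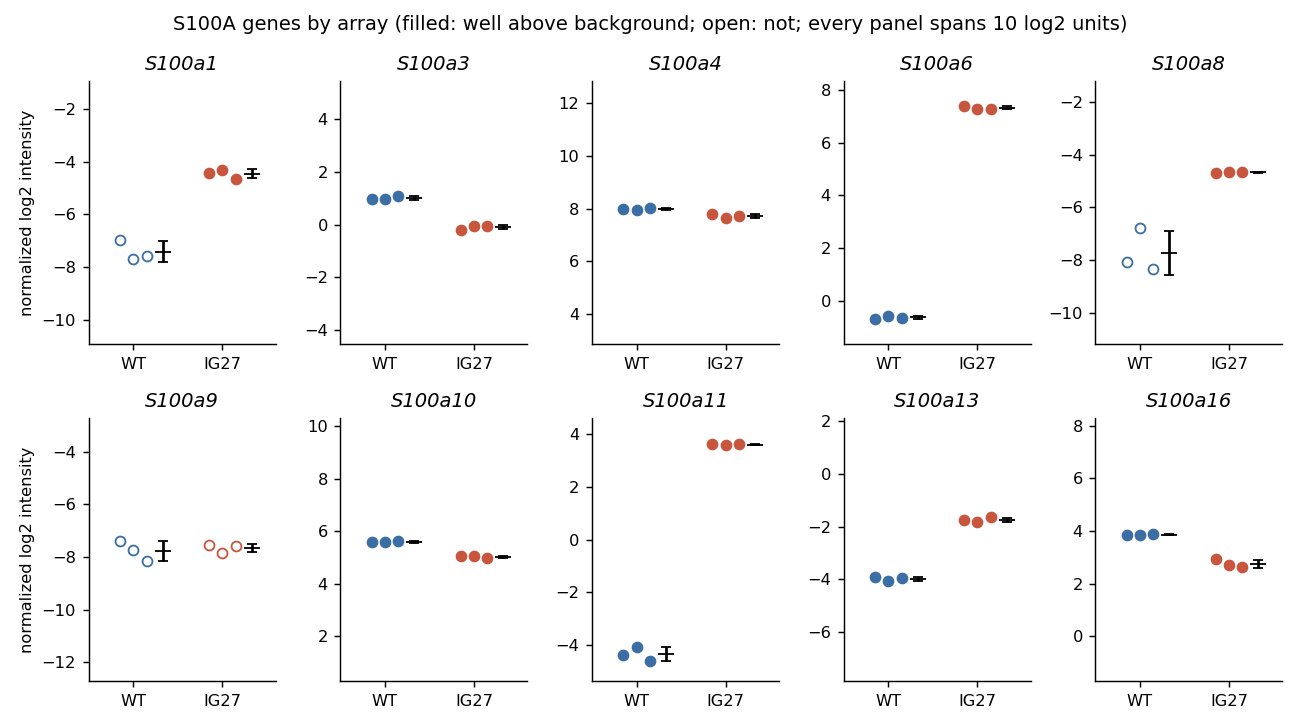
Normalized log2 intensity of each S100A gene on the 3 WT (blue) and 3 IG27 (red) arrays, with the mean and SD of each group in black. Every panel spans the same range of log2 units around its own center, open points mark a group in which no array with complete scanner output was well above background, and *S100a6* and *S100a11* show the widest gap between the groups while *S100a4* shows the narrowest of the tested members.

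*S100a6* (calcyclin) binds the calcyclin-binding protein Cacybp and its relative Sugt1, and is found in dividing cells. Its probe read -0.68, -0.58 and -0.64 in WT cells and 7.39, 7.30 and 7.28 in IG27 cells. Before scaling, the processed signals were 632 to 699 in WT and 155400 to 183300 in IG27 cells, well above background in both groups. The log2 difference was 7.96 (SE 0.05), a 248-fold higher level in IG27 cells.

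*S100a11* (calgizzarin), a partner of annexin A1, read -4.39, -4.07 and -4.59 in WT cells and 3.62, 3.59 and 3.64 in IG27 cells. The signals were 40.9 to 62.2 in WT, each below the median signal of its array, and 12430 to 13650 in IG27 cells. Its log2 difference was also 7.96 (SE 0.13), or 249.5-fold. The SD was 0.27 over WT and 0.03 over IG27 cultures, and the WT probe was well above background on each array. With normexp background correction on the complete arrays the log2 difference was 6.87. RefSeq lists a pseudogene, *S100a11-ps*, and whether the probe also reads it was not tested.

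*S100a13*, which travels with Fgf1 when this growth factor leaves the cell, read -3.92, -4.05 and -3.96 in WT cells and -1.76, -1.83 and -1.64 in IG27 cells. The log2 difference was 2.23 (SE 0.07), a 4.70-fold higher level in IG27 cells. All 6 values lay below the 75th percentile, with signals of 62.8 to 70.9 in WT and 320 to 324 in IG27 cells. The median signals of the arrays were 55.4 to 62.9 in WT and 67 to 77.6 in IG27 cells. With normexp background correction on the complete arrays the log2 difference was 1.615.

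*S100a1*, best known from heart muscle, where it binds the calcium pump and release channel, lies next to *S100a13* in the opposite orientation. Its probe was not well above background in WT cells, where it read -6.97, -7.70 and -7.58. In IG27 cells it read -4.41, -4.31 and -4.65, well above background but with signals of only 39.8 to 57.3. The level was at least 2.48-fold higher in IG27 cells, measured against the dimmest probes that were still well above background. This floor is not a detection limit for each probe. *S100a14* read above it in WT cells but was well above background on 1 of 3 WT arrays only. With normexp background correction, which adds an offset of 50 to every spot, the fitted log2 difference was only 0.67, below that bound.

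*S100a8* and *S100a9* form calprotectin, the zinc- and manganese-binding complex of neutrophils. *S100a8* read -8.06, -6.80 and -8.34 in WT cells, all at background, and -4.70, -4.64 and -4.66 in IG27 cells, a level at least 2.15-fold higher there, though the fitted log2 difference with normexp background correction was only 0.83. The signals in IG27 cells were 39.6 to 45.4. *S100a9*, its partner, was not well above background in either group, at -7.40, -7.73 and -8.16 in WT and -7.55, -7.83 and -7.58 in IG27 cells, and the groups overlapped. Thus only 1 chain of the complex gave a signal. Of 9 myeloid markers, *Ptprc*, *Lyz2* and *Cx3cr1* were not well above background in either group, *Ly6g* had no named probe, and 5 were tested. *Aif1* (1.66, with 1 of 3 WT arrays well above background), *Mpo* (0.53) and *Cd68* (0.31) rose, as did *Itgam* (0.20), and *Csf1r* fell by 1.57, all past the limma threshold. *Aif1* was tested only because it was measured in IG27 cells. Of all genes tested, 30.5% rose and 40.0% fell, and nothing is read from the count of myeloid markers. The summed level of the list was 12.5 to 13 in WT and 13 to 13.4 in IG27 cells, in multiples of the 75th percentile, and the part of such cells in the *S100a8* signal was not tested.

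*S100a4* (metastasin) binds non-muscle myosin IIA and is known for its role in cell motility. It lies 2 genes before *S100a6*, with *S100a5* between them. It read 7.998, 7.937 and 8.021 in WT cells and 7.777, 7.632 and 7.724 in IG27 cells. Its signals of 211100 to 274000 were strong in both groups, and the difference of -0.27 (SE 0.06), a 1.21-fold lower level in IG27 cells, was the smallest of the tested members. The groups did not overlap, but the difference no longer passed the threshold once the row of the slide was taken into account (-0.23). Only WT replicate 2 shared the row of the IG27 arrays. Each fit with the slide row therefore rests on 1 WT array and cannot tell a row effect from the loss of arrays.

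*S100a3*, a cysteine-rich protein of the hair cuticle, read 0.96, 0.96 and 1.10 in WT cells and -0.19, -0.04 and -0.04 in IG27 cells. It was 2.14-fold lower in IG27 cells, with a log2 difference of -1.10 (SE 0.07). Between *S100a3* and *S100a4* the RefSeq order places *S100a2*, a gene outside the set that was added after its values were seen. Its log2 difference was -0.50 (SE 0.05), given as a description.

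*S100a16*, a widely expressed member with an atypical EF-hand, had 2 probes. The brighter probe, used for the tests, read 3.84, 3.87 and 3.88 in WT cells and 2.93, 2.71 and 2.63 in IG27 cells, a log2 difference of -1.11 (SE 0.09). The other probe read 3.78, 3.77 and 3.80 in WT cells and 1.74, 1.46 and 1.66 in IG27 cells, a difference of -2.16. Both probes put the gene lower in IG27 cells with no overlap, but the size of the difference depended on the probe. Why they differ was not tested.

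*S100a10* (p11) has lost calcium binding and sits as a constant partner on annexin A2, together with which it anchors plasminogen at the cell surface. Its brighter probe read 5.58, 5.57 and 5.64 in WT cells and 5.05, 5.04 and 4.99 in IG27 cells, a log2 difference of -0.57 (SE 0.05). The other probe gave 4.58, 4.52 and 4.73 in WT and 4.03, 3.92 and 3.88 in IG27 cells, a difference of -0.66. Here the probes differed little in size. *S100a10* is the direct neighbor of *S100a11*, so adjacent genes differed in opposite directions, by -0.57 and 7.96.

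**Figure D2:**
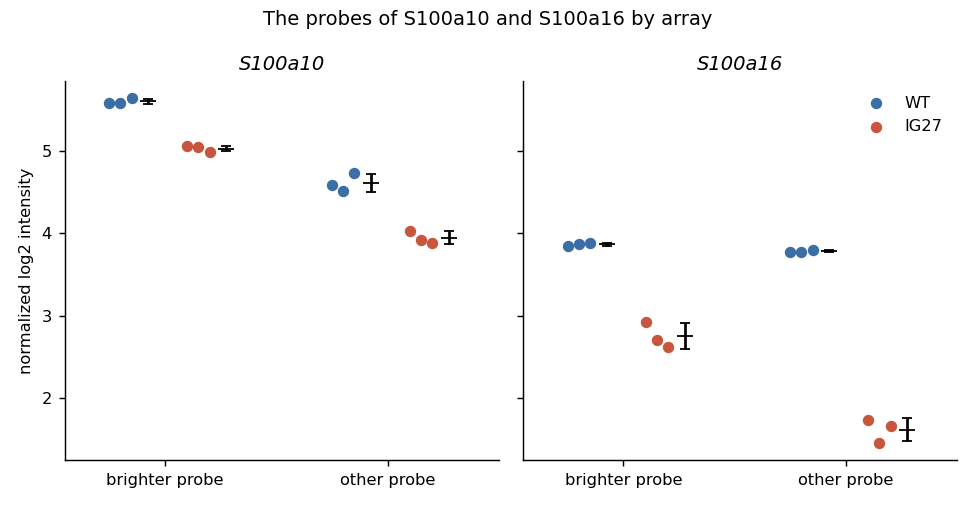
Normalized log2 intensity of both probes of *S100a10* and of *S100a16* on each WT (blue) and IG27 (red) array, with the mean and SD of each group in black. The probes of *S100a10* show differences of -0.57 and -0.66, while those of *S100a16* show -1.11 and -2.16.

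The genes around the members were then examined, to see whether the differences ran along the chromosome. RefSeq lists 75 genes that are no S100 gene either between the outermost S100 genes or among the 10 nearest on each side, and only their names and order were used. Of these, 69 had a probe and 25 were tested, while 41 were not well above background on any array. Over all genes tested 30.5% rose and 40.0% fell, and of the 25 neighbors 2 rose, 11 fell and 12 did not pass the threshold. Their log2 differences ran from -0.71 to 0.55 with a median of -0.12, against -0.07 over all genes tested. The members differed in either direction, with *S100a13*, *S100a6* and *S100a11* at 2.23, 7.96 and 7.96 and *S100a3* and *S100a16* at -1.10 and -1.11, whereas *S100a4* (-0.27) and *S100a10* (-0.57) lay inside the range of the neighbors. Between the S100 genes, 13 neighbors were tested, of which 1 rose and 3 fell. Outside them, 12 were tested, of which 1 rose and 8 fell.

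The largest falls among the neighbors were those of *Snapin* (-0.71, SE 0.07, adjusted p = 0.000177 from limma), a protein of SNARE complexes, *Slc27a3* (-0.70, SE 0.05, adjusted p = 3.5e-05) and the zinc transporter *Slc39a1* (-0.66, SE 0.06, adjusted p = 0.000154). The rises were those of *Lce1j* (0.44, SE 0.15, adjusted p = 0.0335 from limma), whose groups overlapped, and *Spopfm2* (0.27, SE 0.07, adjusted p = 0.0151). The first did not pass in 9 of 16 other settings, and the second not with quantile normalization (0.10, adjusted p = 0.258). Among the 16, complete arrays only and leaving out IG27 replicate 2 are the same fit. *Lce*, *Sprr*, *Tdpoz* and *Spopfm* genes have near-identical copies, so their probes may read more than 1 gene. The gene nearest to *S100a1* on the outer side, *Chtop*, fell by 0.33 (SE 0.05, adjusted p = 0.00111 from limma), and *S100a13* and *S100a1* beside it were higher in IG27 cells. *Tchh*, next to *S100a11* among the genes tested, had a difference of -0.44 that did not pass the threshold (adjusted p = 0.051), and its IG27 signal was not well above background. It was the only gene tested of 9 listed S100-fused and cornified envelope genes. Of the rest, *Flg* had no named probe and the other 7 were not well above background on any array.

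**Figure D3:**
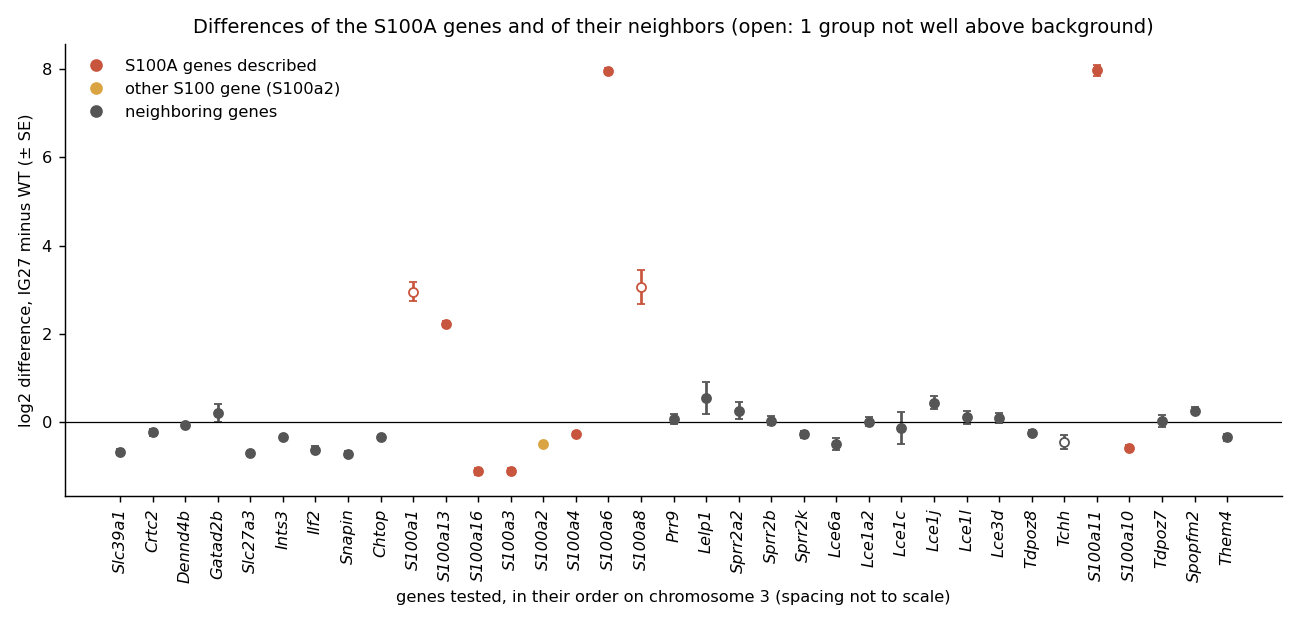
Log2 difference between IG27 and WT cells (± SE) for the S100A genes described (red), *S100a2* (yellow) and the neighboring genes (gray), each tested gene at its place in the order on chromosome 3. Open points had 1 group that was not well above background. The 25 neighbors lie between -0.71 and 0.55, while 5 of the S100A genes have fitted differences of 2.23 or above. Of these, *S100a1* and *S100a8* start from a WT signal that was not well above background, so the size of their difference is not measured.

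Other S100 genes were listed as well. *S100b*, the astrocyte member, which lies outside the cluster, rose by 4.93 (SE 0.09, adjusted p = 1.48e-07 from limma), from -1.48 ± 0.13 (SD, n = 3) to 3.45 ± 0.09 (SD, n = 3), with no overlap. *S100z* rose by 2.16 (SE 0.55, adjusted p = 0.0129 from limma), though only 1 of 3 WT arrays was well above background, and with the row of the slide it did not pass (adjusted p = 0.102). The S100P-binding protein gene *S100pbp* rose by 0.24 (SE 0.05, adjusted p = 0.00543 from limma). These were the 3 genes tested of 8 listed, and all 3 rose, where 30.5% of all genes tested did. *S100z* was tested only because it was measured in IG27 cells, and *S100pbp* codes for a binding protein, not an S100 protein. Nothing is read from this count. The list leaves out *S100a2*, whose difference was -0.50. *S100a5*, *S100a7a*, *S100a7l2* and *S100g* were not well above background on any array, and *S100a14* exceeded background on 1 WT array only.

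Partners inside the cell were measured for 16 of 19 listed genes, of which 6 rose, 8 fell and 2 did not pass the threshold (median -0.02). Over all genes tested, 30.5% rose and 40.0% fell. In WT cells *Fgf1*, whose protein leaves the cell together with S100a13, was not well above background, and in IG27 cells it read -1.28, at least 22.4-fold higher (adjusted p = 1.72e-06 from limma). It too was tested only because it was measured in IG27 cells, so this p-value sets a signal against WT background. *Ppfibp1*, the liprin that binds S100a4, rose by 2.30 (SE 0.07, adjusted p = 8.52e-07). The p53 gene *Trp53*, a partner of several S100 proteins, rose by 0.75 (SE 0.06, adjusted p = 6.18e-05), and *Mdm2*, which marks p53 for breakdown, fell by 0.51 (SE 0.07, adjusted p = 0.000659). The mean of the *Mdm2* probes that passed the background filter gave only -0.06 (adjusted p = 0.34). The myosin heavy chain *Myh9*, the target of S100a4, rose by 0.36 (SE 0.06, adjusted p = 0.00174 from limma). For S100a1, the calcium pump gene *Atp2a2* fell by 0.31 (SE 0.06, adjusted p = 0.0046 from limma). It did not pass with quantile normalization (-0.17, adjusted p = 0.0517). The release channel gene *Ryr2* was not well above background in either group.

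Among the annexins, *Anxa2*, the partner of S100a10, fell by 0.58 (SE 0.07, adjusted p = 0.00039 from limma), beside a difference of -0.57 for *S100a10* itself. *Ahnak*, a giant scaffold protein held by that pair at the membrane, fell by 1.03 (SE 0.15, adjusted p = 0.00112). *Anxa1*, the partner of S100a11, fell by 0.21 (SE 0.05, adjusted p = 0.00881), though not past the threshold with the row of the slide (adjusted p = 0.0627), while *S100a11* stood 7.96 higher. *Cacybp*, which binds S100a6, fell by 0.14 (SE 0.05, adjusted p = 0.0389), and this did not pass in 10 of 16 other settings. *Sugt1* differed by 0.14 (SE 0.07, adjusted p = 0.117) and *Anxa6* by 0.09 (SE 0.16, adjusted p = 0.637), neither past the threshold, although *Sugt1* passed with quantile normalization (0.29, adjusted p = 0.00285).

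The plasminogen system, which S100a10 serves as a receptor, had 3 of 5 genes tested, of which 2 rose and 1 fell. Of all genes tested, 30.5% rose and 40.0% fell. *Plaur*, the urokinase receptor, rose by 1.96 (SE 0.05, adjusted p = 3.79e-07 from limma) and the protease inhibitor *Serpine2* by 3.27 (SE 0.19, adjusted p = 1.63e-05). Tissue plasminogen activator *Plat* fell by 1.49 (SE 0.08, adjusted p = 1.27e-05). *Plg* was not well above background in either group, and the urokinase gene *Plau* exceeded background on 1 of 2 complete IG27 arrays and on no WT array.

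Receptors for S100 proteins outside the cell had 4 of 6 genes tested, of which 2 rose, 1 fell and 1 did not pass. Of all genes tested, 30.5% rose and 40.0% fell. In WT cells *Tlr4*, a receptor for the S100a8 and S100a9 complex, was not well above background, and in IG27 cells it read -1.26, at least 22.8-fold higher (adjusted p = 1.42e-07 from limma). *Tlr4* was tested only because it was measured in IG27 cells, so this p-value sets a signal against WT background. Its co-receptor *Ly96* rose by 0.21 (SE 0.05, adjusted p = 0.0107), which did not pass with the row of the slide (adjusted p = 0.0977) or with normexp background correction (adjusted p = 0.0756). *Ager*, the gene of RAGE, had 5 probes and fell by 1.06 by its brightest (SE 0.08, adjusted p = 4.26e-05). The mean of its probes that passed the background filter gave -0.14 (adjusted p = 0.0733). *Bsg*, which also binds the S100a9 protein, differed by 0.03 (SE 0.06, adjusted p = 0.735) but passed with quantile normalization (0.19, adjusted p = 0.0379). *Cd36* was not well above background in either group, and *Cd14* exceeded background on 1 WT array only.

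**Figure D4:**
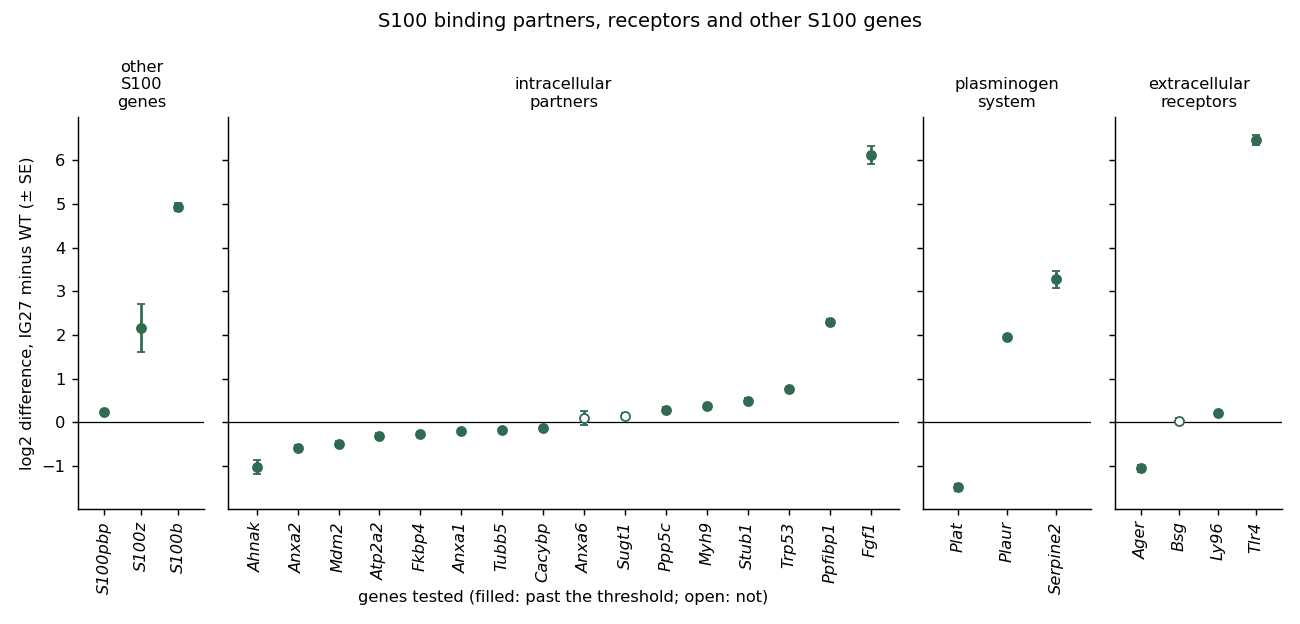
Log2 difference between IG27 and WT cells (± SE) of the genes tested among other S100 genes, intracellular partners, the plasminogen system and extracellular receptors, each panel in order of the difference. Filled points passed the limma threshold, and *Tlr4*, *Fgf1* and *S100b* lie highest, with fitted differences of 6.46, 6.11 and 4.93, of which those of *Tlr4* and *Fgf1* start from a WT signal that was not well above background.

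Genes with a pattern like that of *S100a6* and *S100a4* were named by the smallest root mean square difference between values over the 6 arrays, each gene centered on its own mean. For *S100a6* these were *Map3k5* (0.13), *Gsdmd* (0.14), *Il13ra1* (0.15), *Shisal1* (0.15) and *Basp1* (0.16), none of which was well above background in WT cells, whereas *S100a6* was. For *S100a4* they were *H2az1* (0.02), *Rps25* (0.02), *Chchd2* (0.02), *Rps27l* (0.02) and *Mrpl32* (0.02), all bright in both groups. Over 6 arrays in 2 groups, the measure mostly reads the size of the difference between the groups.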

How the data were processed

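Total RNA of 3 WT and 3 IG27 cultures was labeled with Cy3, and the authors read each array with Agilent Feature Extraction, version 10.7.3.1 per the file headers and 9.1 per the submitters' notes. The deposited values are processed spot intensities on a linear scale, without scaling between arrays. The scanner output of IG27 replicate 2 held 285 complete spots, so its values came from the deposited value table, which equaled the scanner output in all 255 single-spot probes that could be checked (relative tolerance 1e-04). In this table the columns of WT replicates 2 and 3 are exchanged relative to the scanner output, whose own labels were followed.

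Control spots and outlier-flagged spots (107 to 210 per complete array) were left out, and the log2 intensity was set relative to the array's 75th percentile. Genes were named through the RefSeq accession of the probe (32994 probes, 22911 genes), and the brightest probe stood for a gene. Probes that all complete arrays of either group placed well above background left 14894 genes, which were compared by lmFit and eBayes of limma 3.58.1 under R 4.3.3, two-sided, at a Benjamini-Hochberg adjusted p of 0.05. The scripts were tested on simulated data. A bound for a dim group was computed against the lowest signal among probes well above background. Each "at least" is relative to that floor, which is not a detection limit for each probe. A gene with a dim group was tested only because the other group measured it, so its p-value sets a signal against background. The number of arrays limits the precision.

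Every member was described in full. From each list, the 3 largest rises and falls past the threshold without overlap were named, and for neighbors the 3 largest each way. Listed genes that the text describes as binding partners of a member were named as well. The members and lists were chosen with earlier results of these data known. Of the listed genes, 1 is not reported here. Promoter windows, gene names and gene order came from RefSeq (GRCm38.p6), and no coordinates were taken from the array, whose probes were designed on mm9. The alternatives were quantile normalization, normexp background correction (offset 50), complete arrays only, other filters, keeping the outlier spots, averaging the probes of a gene, a trended eBayes, the replicate number or slide row as a block, each array left out, and the unadjusted p of 0.05 that the methods name. The slide row was read from the name of each scanner output. Averages of a gene's probes used only probes that passed the background filter.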

Additional observations from a re-analysis of the deposited data

How the results depend on the processing

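Each setting was changed alone, except that normexp also leaves out IG27 replicate 2, whose background signals were not used. Over all genes tested, limma called 10498 in the main setting, 10818 with quantile normalization, 10028 with normexp and 9793 on complete arrays only. It called 10225 of 22911 genes with no filter, 9573 of 13525 with signal on every complete array and 10634 of 14898 with probe means. The counts below are descriptions beside these. Quantile normalization gave a median log2 difference of 2.059 for the S100A genes, 5 falls among the intracellular partners and 0 rises among the neighbors in limma, also 0 at an unadjusted p under 0.05. Normexp background correction on the complete arrays gave a median of 0.67, the value of *S100a1* there, with 1 rise among the receptors and 1 among the neighbors, and complete arrays only gave 1 rise among the neighbors. With no filter on dim probes the median of the S100A genes was 1.17, beside a median of 0.12 over all genes, and 1 other S100 gene, *S100a14*, fell. Asking for signal on every complete array removed *S100a1* and *S100a8*, which left 3 S100A genes higher and a median of -0.27, and 1 receptor rose. The mean of a gene's probes left 0 receptors that fell in limma, also 0 at an unadjusted p under 0.05. The slide row block, which compares WT replicate 2 with the IG27 arrays of the same row, left 4 falls among the partners, 1 rise among the receptors and 1 among the neighbors. WT replicates 1 and 3 lay in the other row, so this block rests on 1 WT array. It called fewer genes over the whole array as well, so nothing is read from its counts. *Anxa6*, not past the threshold, turned to -0.009 with quantile normalization and -0.16 with the slide row block. The cause of these shifts was not tested beyond the samples and probes left out.

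Leaving out 1 array at a time gave 1 to 2 rises and 7 to 10 falls among the neighbors, the 7 without WT replicate 2, and 1 rise without WT replicate 1 or 3 or IG27 replicate 1 or 2. Over all genes tested, these fits called 9793 to 10158. They gave -0.089 to 0.213 for *Anxa6* and -0.02 to 0.064 for *Bsg*. The samples share replicate numbers, but same-numbered samples did not deviate together (r = 0.012, 0.041 and 0.077), and the replicate block called 10309 genes in place of 10498, with 9 S100A genes among them. Over 51 named genes and 16 settings, 752 values kept direction and side of the threshold, 46 lost and 3 gained it, and 5 turned sign. Complete arrays only and leaving out IG27 replicate 2 are the same fit, and both are counted among the 16. The methods' threshold, an unadjusted p, called 9 S100A genes and 14 neighbors. Over all genes tested, the adjusted threshold already called 70.5%, so nothing is read from these counts. *S100a9* and the WT levels of *S100a1* and *S100a8* are limited by background.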
